A study of Mus musculus with 4 samples.

Results

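Open chromatin at 7 genes of the late red cell programme was examined in ATAC-seq libraries of mouse fetal liver: Nfe2, Mafk, Mafg, Bach1, Hmox1, Gfi1b and Foxo3. A peak was assigned to a gene when its summit lay in the gene body, or within 100 kb with that gene's end as the nearest protein-coding gene boundary in the mouse RefSeq table. Merging peaks that shared at least 1 bp over the libraries gave 65 regions at these genes, of 55290 regions in all. Foxo3 had 27 regions, Bach1 16, Gfi1b 9, Nfe2 6, Hmox1 3, and Mafk and Mafg 2 each.

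In ATAC-seq a transposase cuts accessible DNA, and a peak is a stretch where cut fragments pile up. The genotypes were compared at embryonic day 14.5: Hemgn knockout (KO) livers with 2 libraries and wild-type (WT) livers with 2 libraries. Hemogen, the Hemgn product, is found in the nuclei of developing blood cells, and the series title names its cooperation with BRG1, the ATPase of the BAF remodelling complex. The labels give neither the Hemgn allele nor the strain, and are silent on whether each library is a different embryo, so p-values measure only the spread between these libraries, which may be technical. No Cre or transgene is named, and the whole liver was used, so fewer cells of a type and less accessible DNA per cell cannot be told apart.

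NFE2 is a DNA-binding CNC protein that works as a dimer with a small MAF protein such as MAFK or MAFG, and in red cell precursors it activates globin and other late genes. BACH1 competes for the same small MAF partners and represses those sites. Heme binds BACH1, releases it from DNA and leads to its breakdown, so that Hmox1, which encodes the heme-degrading enzyme heme oxygenase 1, is released from repression as heme builds up. GFI1B is a zinc finger repressor needed for red cell and platelet production, and FOXO3 is a forkhead activator that supports antioxidant defence and late erythroid maturation.

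Promoter sequences are shown here for 4 genes, because start sites and more distant regions of these genes are compared below. RefSeq windows of GRCm38.p6, reaching from 250 bases before the start to 50 after it, matched 5 of the 7 genes, and each of the 5 windows met a peak in all 4 libraries. Capitals mark matches, on either strand, to the antioxidant response element core TGACNNNGC and to the KLF-type box CCACCC. They also mark the GATA-type site TGATAA, which was added after the sequences were seen. The windows are Mafk (chr5:139791286-139791585, plus strand), Gfi1b (chr2:28621933-28622232, minus strand), Bach1 (chr16:87698704-87699003, plus strand) and Foxo3 (chr10:42276646-42276945, minus strand), each read 5′ to 3′ on the gene's strand.
Mafk: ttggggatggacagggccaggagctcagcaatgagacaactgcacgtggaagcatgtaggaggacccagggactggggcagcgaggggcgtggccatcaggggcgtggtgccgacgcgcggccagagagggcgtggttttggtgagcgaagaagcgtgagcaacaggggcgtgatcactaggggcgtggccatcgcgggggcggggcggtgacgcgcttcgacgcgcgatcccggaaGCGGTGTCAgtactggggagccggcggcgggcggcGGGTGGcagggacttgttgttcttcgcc
Gfi1b: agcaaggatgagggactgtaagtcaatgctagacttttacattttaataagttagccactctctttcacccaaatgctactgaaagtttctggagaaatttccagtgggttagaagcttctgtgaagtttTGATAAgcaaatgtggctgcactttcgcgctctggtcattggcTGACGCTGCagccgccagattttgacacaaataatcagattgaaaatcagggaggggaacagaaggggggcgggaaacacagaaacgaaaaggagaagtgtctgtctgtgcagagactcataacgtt
Bach1: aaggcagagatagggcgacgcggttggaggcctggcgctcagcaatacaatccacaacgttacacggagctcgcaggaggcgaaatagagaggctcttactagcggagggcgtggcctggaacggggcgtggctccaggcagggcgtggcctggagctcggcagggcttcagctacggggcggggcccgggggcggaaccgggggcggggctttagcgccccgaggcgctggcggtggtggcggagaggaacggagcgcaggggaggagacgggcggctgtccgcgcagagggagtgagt
Foxo3: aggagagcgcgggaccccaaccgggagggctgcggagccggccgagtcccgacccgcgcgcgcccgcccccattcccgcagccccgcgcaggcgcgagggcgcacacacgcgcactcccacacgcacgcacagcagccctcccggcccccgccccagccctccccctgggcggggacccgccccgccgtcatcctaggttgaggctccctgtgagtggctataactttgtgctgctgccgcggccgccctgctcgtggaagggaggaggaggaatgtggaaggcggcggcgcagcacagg

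Gfi1b stood apart in base composition. Its window was 44.3% G or C with 7 CpG, against a median of 52.7% over 32851 promoter windows. The other 4 windows were 68.3% (Mafk), 69.7% (Mafg and Bach1) and 75% (Foxo3) G or C, with 31 to 39 CpG. The antioxidant response element core TGACNNNGC occurred once each in Gfi1b, Mafk and Mafg, and in 12.4% of all windows. CCACCC occurred once, in Mafk, and in 31.5% of all windows. TGATAA occurred once, in Gfi1b, and in 9.05% of all windows. CANNTG, the E-box, occurred 2 times each in Gfi1b, Mafk and Mafg, and in 72.3% of all windows. No member window held the full NFE2 consensus of 10 letters, the shorter TGANTCA, the GATA site AGATAA or the forkhead site GTAAACA, which were in 0.155%, 7.81%, 11.2% and 3.65% of all windows.

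The libraries differed in the number of peaks they gave. KO replicates 1 and 2 had 35426 and 43018 peaks on the chromosomes, and WT replicates 1 and 2 had 47858 and 34181. The fragments at a peak's summit were recovered from the deposited fold and p, and the most frequent local background was 2.49 and 3.8 fragments in KO, against 5.67 and 2.29 in WT. By that measure WT replicate 1 was the deepest library. The smallest peak held 9 and 12 summit fragments in KO, against 15 and 9 in WT. At Hemgn itself, 5 of 7 regions were in all 4 libraries, and the region at its boundary had 127 and 199 summit fragments in KO, against 265 and 118 in WT, so the lists alone do not show the knockout. Erythroid marker genes had a boundary region in all 4 libraries at 7 of 8 genes, and no library had a peak at a Gata1 boundary. Such a region was also found at 4 of 8 hepatocyte genes (Apoa1, Apoa2, Trf and Ahsg), 2 of 8 macrophage genes (Cd68 and Fcgr1) and 3 of 6 megakaryocyte genes (Itga2b, Gp1ba and Gp9). Among the genes without one were Alb and Afp of hepatocytes, Adgre1 and Csf1r of macrophages, and Pf4 of megakaryocytes.

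The 7 genes together had 41 and 48 peaks in KO replicates 1 and 2, against 56 and 39 in WT replicates 1 and 2. The number followed list length, at 1.16 and 1.12 per 1000 peaks in KO and 1.17 and 1.14 in WT. Means were 44.5 ± 4.95 in KO and 47.5 ± 12 in WT (SD, n = 2 each), and an exact two-sided permutation test gave p = 1, where the smallest p that 6 relabelings allow is 0.33. Foxo3 had 15 and 17 peaks in KO against 21 and 12 in WT, the widest spread of the 7 genes between WT libraries. Bach1 had 10 and 10 peaks in KO against 13 and 9 in WT, and Gfi1b had 8 and 8 in KO against 9 and 7 in WT. Nfe2 had 3 and 6 in KO against 6 and 4 in WT. The groups overlapped for each of these 4 genes.

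**Figure D1:**
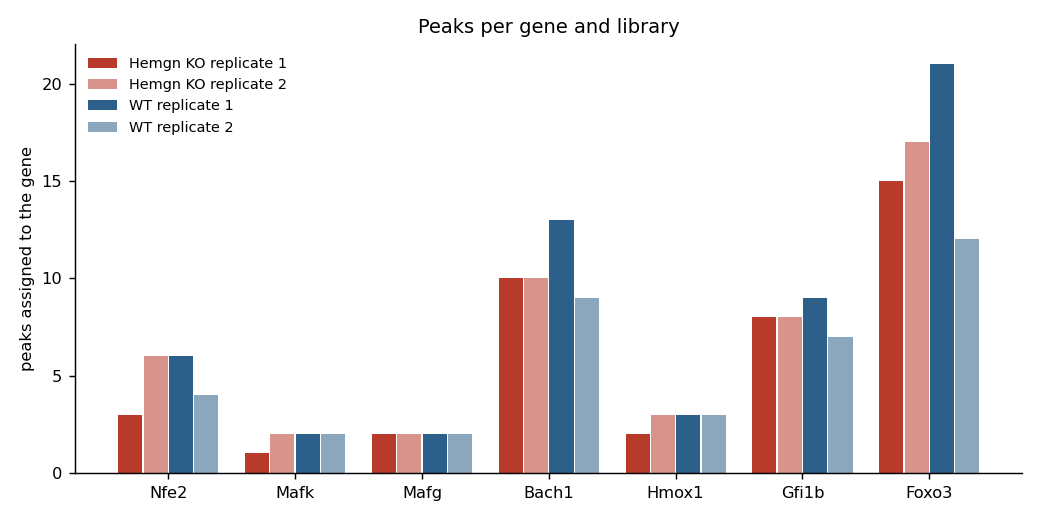
Number of peaks (vertical axis) assigned to each gene (horizontal axis) in each library, with KO bars left of WT bars. WT replicate 1 has the highest bar at Foxo3, with 21 peaks, and WT replicate 2 the lowest, with 12.

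Of the 65 regions, 29 were in all 4 libraries (44.6%, where 49.7% of all regions were) and 17 were in a single library (26.2%, where 25% of all regions were). A further 6 were found only in KO replicate 2 and WT replicate 1, which have the longest lists. Gfi1b was the most evenly shared of the genes with many regions, with 7 of 9 in all 4 libraries. At Foxo3 12 of 27 regions were in a single library, and 8 were in all 4. Only 1 region of the 65 was found in both WT libraries and neither KO library, a share of regions that was 2.2% over the genome. Only 1 was found in both KO libraries and neither WT library, which was 1.41% over the genome. Neither count stands out against its background.

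The WT-only region was at Bach1 (chr16:87754852-87755120), 21.7 kb beyond the end of the gene. It held 35 and 16 summit fragments in WT replicates 1 and 2, at the 51.3 and 38.4 percentiles of fold in their lists. A neighbour at chr16:87746670-87747079 had 15 summit fragments in KO replicate 1 and no peak in KO replicate 2, against 74 and 24 in WT. Its percentile of fold was 34.9 in KO replicate 1, against 79.8 and 60.2 in WT. The KO-only region was at Foxo3 (chr10:42171127-42171448), 10.6 kb beyond the end of the gene. It held 15 and 17 summit fragments in KO replicates 1 and 2, at the 27.5 and 22.9 percentiles. Both lie in the lower part of their lists by summit fragments, at the 36.5 and 21.8 percentiles in WT for the Bach1 region and at the 19.3 and 12 percentiles in KO for the Foxo3 region.

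Ranks within a list were compared first. The percentile of fold places a peak among all peaks of its own list, where 100 is the highest fold. Among the 29 shared regions 1 ranked higher in both KO libraries than in both WT libraries, where 10% of all shared regions did, and 3 ranked lower, where 13.6% did. The median difference in percentile, KO minus WT, was −6.17 points at these genes and −0.576 over all 27473 shared regions. The per-library medians were 32.6 and 42.9 in KO, against 53.1 and 31.6 in WT, so the groups overlap and the longest list has the highest median. With ranks taken among the shared regions alone, 2 regions were higher (19.2% of all) and 8 lower (20.4% of all), and the median difference was −1.27 points.

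The percentile of fold and the number of fragments gave different orders, since fold divides by a local background. The median background at the 29 shared regions was 20.6 and 31.2 fragments in KO, against 55.1 and 22.2 in WT, several times each library's most frequent value. In every library 23 of the 29 shared regions had a higher percentile by summit fragments than by fold. Neither the background nor this count was compared with all shared regions, so neither is shown to be particular to these genes. Medians by summit fragments were 69.0 and 76.7 in KO, against 81.2 and 73.5 in WT. The Gfi1b start site shows this. It ranked at the 4.6 and 8.86 percentiles of fold in KO, against 9.42 and 3.01 in WT. By summit fragments it ranked at the 68.8 and 74.4 percentiles in KO, against 75.9 and 66.5 in WT.

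**Figure D2:**
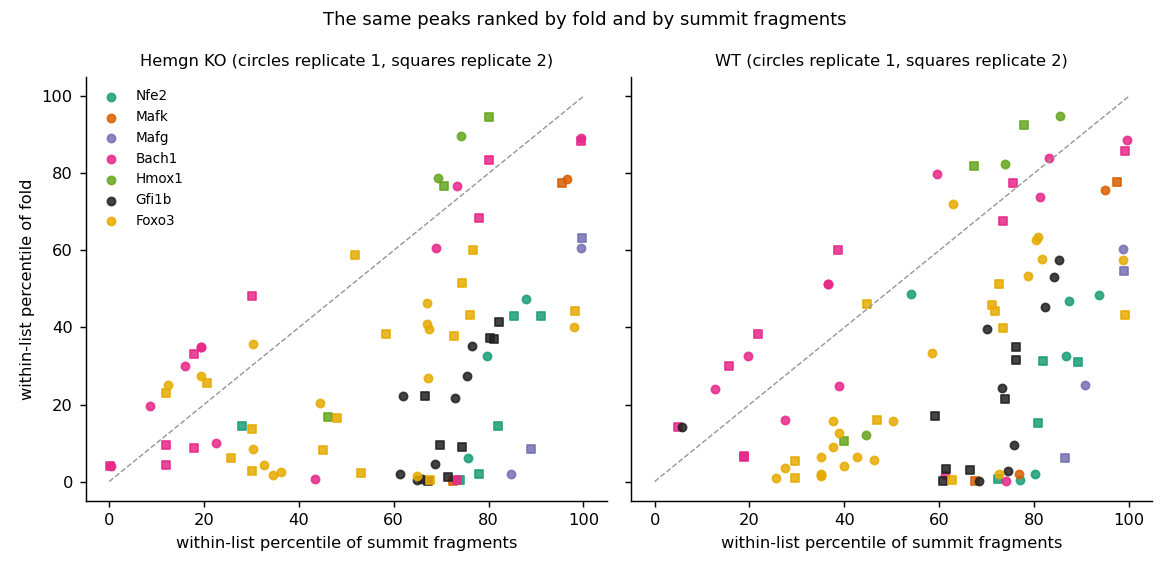
Percentile of fold (vertical axis) against percentile of summit fragments (horizontal axis) for each region of the 7 genes in each library, KO at the left and WT at the right. Most strong regions lie below the dashed line of equal rank, with some but not all Gfi1b regions near the floor by fold. The 2 Hmox1 regions shared by all libraries lie above the line in both genotypes.

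Summit fragments were therefore also compared between genotypes, on a log2 scale with each library's median over the 27473 shared regions set to 0. This comparison was chosen after the lists had been seen. A limma model over all shared regions called 430 lower in KO (1.57%) and 328 higher (1.19%) at a Benjamini-Hochberg adjusted p under 0.05. At the 7 genes it called 2 of 29 lower, both at Foxo3, and 0 higher. Both lie over 1 kb from a boundary, where 2.56% of regions were called lower. At an unadjusted p under 0.05, 9 of 29 were lower and 0 higher, where 6.72% and 7.03% of all regions were. All 9 lay over 1 kb from a boundary, where 1636 of 15297 shared regions were lower and 867 higher. Both KO libraries lay below both WT libraries at 14 of the 29 regions, where 17.3% of all regions did, and above them at 2, where 22.2% did.

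Regions away from gene ends carried most of these differences. Of the 21 shared member regions over 1 kb from a gene boundary, 12 had both KO libraries below both WT libraries, where 24.6% of such regions did genome-wide. Their median log2 difference, KO minus WT, was −0.24, against 0.00 for all such regions. The 21 include the region holding the Mafg promoter window, at 0.27, which lies over 1 kb from the annotated gene end. At the 8 within 1 kb of a boundary, 2 were lower without overlap, where 8.19% were genome-wide. The median there was −0.01, against 0.08 for all boundary regions. Foxo3 weighed heavily on the total, with a median of −0.47 over its 8 regions, against −0.10 over the 21 regions of the other 6 genes.

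Marker genes were compared at boundary regions only, where 8.19% of all shared regions were lower in KO without overlap. At erythroid genes the median centred log2 was 1.97 and 2.19 in KO, against 2.46 and 2.52 in WT. Of the 7 erythroid genes with a shared boundary region, 5 were lower in KO without overlap. At megakaryocyte genes the medians were −0.08 and 0.28 in KO, against 0.45 and 0.56 in WT, over 3 of 6 genes, all 3 lower without overlap. Hepatocyte genes had −0.31 and −0.64 in KO, against −0.15 and −0.49 in WT, over 4 of 8 genes with 3 lower without overlap. Macrophage genes had 0.28 and 0.22 in KO, against −0.01 and 0.39 in WT, over 2 of 8 genes with 0 lower without overlap. The part of these cell types in the differences at the 7 genes was not tested.

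**Figure D3:**
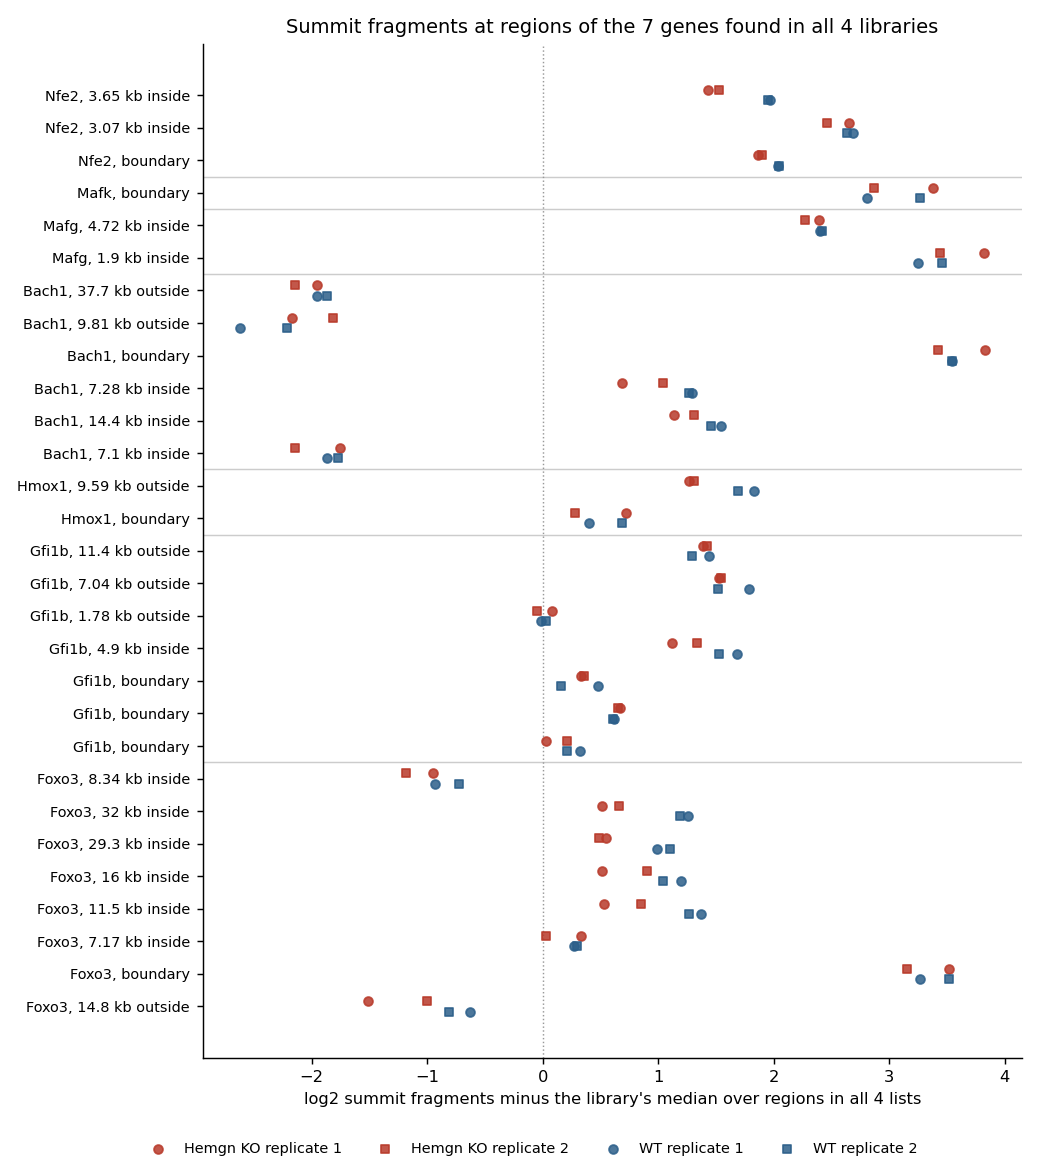
Centred log2 summit fragments (horizontal axis) of the 29 regions found in all 4 libraries, by gene and by distance of the summit from the nearer gene end (rows), with KO points above WT points in each row. The Foxo3 regions 11.5 and 32.0 kb inside the gene show KO points clear of WT points, and the Foxo3 and Bach1 boundary regions show them mixed.

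NFE2 and its partners come first among the activators. Nfe2 had its strongest region inside the gene (chr15:103254862-103255736). It held 339 and 463 summit fragments in KO, against 874 and 315 in WT. On the centred scale that is 2.65 and 2.46 in KO, against 2.69 and 2.63 in WT, which gives a log2 difference of −0.10 with SE 0.21 (limma, adjusted p = 0.956). The boundary region (chr15:103257953-103259033) had 196 and 313 summit fragments in KO, against 555 and 211 in WT. Its centred levels were 1.86 and 1.9 in KO, against 2.04 and 2.05 in WT, a small gap without overlap (log2 −0.17, SE 0.18, limma adjusted p = 0.837).

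A second region inside Nfe2 (chr15:103251579-103252300) had the widest gap at this gene. It held 145 and 243 summit fragments in KO, against 530 and 197 in WT. Centred levels were 1.43 and 1.53 in KO, against 1.97 and 1.95 in WT, with no overlap. Its percentile of fold was 6.18 and 14.5 in KO, against 32.7 and 15.3 in WT, also without overlap. The log2 difference of −0.48 with SE 0.18 did not pass the threshold (limma, adjusted p = 0.134). Of the other Nfe2 regions, chr15:103264896-103265505 was found only in KO replicate 2, with 23 summit fragments, and WT replicate 1, with 59.

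Mafk, a small MAF partner, had a sharply placed start site. The summit lay 1 bp before the annotated start in each of the 4 libraries, within the sequence shown above. This region (chr5:139791140-139792430) held 561 and 613 summit fragments in KO, against 949 and 492 in WT. Centred levels were 3.38 and 2.87 in KO, against 2.81 and 3.27 in WT, so the groups overlap, with a log2 difference of 0.08 and SE 0.23 (limma, adjusted p = 0.982). A second region 1.99 kb into the gene had no peak in KO replicate 1 and 116 summit fragments in KO replicate 2, against 225 and 83 in WT. That difference in presence was not tested.

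Mafg, the other small MAF partner, gave the single region ranked higher in KO. The region holding its promoter window (chr11:120632237-120633923) was at the 60.6 and 63.2 percentiles of fold in KO, against 60.5 and 54.7 in WT, and the nearest KO and WT values are 60.6 and 60.5. It held 761 and 911 summit fragments in KO, against 1288 and 563 in WT. Centred levels of 3.82 and 3.44 in KO, against 3.25 and 3.46 in WT, overlap (log2 0.27, SE 0.27, limma adjusted p = 0.794). Its highest summit sat 24 bp after the start in KO replicate 1 and 496 bp after it in the other 3 libraries. The region 3.31 kb into the gene (chr11:120629499-120630832) had 283 and 404 summit fragments in KO, against 713 and 273 in WT, with a log2 difference of −0.08.

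BACH1, the heme-sensing repressor, had one of the highest start sites among the members. The Bach1 promoter region (chr16:87698593-87700371) held 767 and 900 summit fragments in KO, against 1568 and 594 in WT. It was at the 99.6 and 99.6 percentiles by summit fragments in KO, against 99.7 and 99.3 in WT. Centred levels were 3.83 and 3.42 in KO, against 3.54 and 3.54 in WT, and the KO values lie on either side of the WT values. The log2 difference was 0.08 with SE 0.28 (limma, adjusted p = 0.984). Summits lay 79 and 79 bp after the start in KO, against 46 and 53 bp in WT. A second boundary region (chr16:87697789-87698217) was found only in KO replicate 2, with 122 summit fragments, and WT replicate 1, with 181.

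Inside Bach1, 3 regions away from the start were in all 4 libraries, and none passed. The region 7.28 kb after the start (chr16:87705637-87706713) held 87 and 173 summit fragments in KO, against 331 and 123 in WT. Centred levels were 0.69 and 1.04 in KO, against 1.29 and 1.27 in WT, without overlap (log2 −0.42, SE 0.18, limma adjusted p = 0.237). The region 14.4 kb after the start (chr16:87712705-87713891) held 119 and 208 in KO, against 392 and 140 in WT. There too both KO levels, 1.14 and 1.31, were below both WT levels, 1.54 and 1.46 (log2 −0.27, adjusted p = 0.553 by limma). At the region 27.3 kb after the start (chr16:87725979-87726477), −1.75 and −2.14 in KO overlapped −1.87 and −1.77 in WT. In the other direction, a weak region 9.81 kb before the start (chr16:87689002-87689646) had centred levels of −2.17 and −1.81 in KO, against −2.62 and −2.21 in WT. It rests on 12 and 24 summit fragments in KO, against 22 and 11 in WT (log2 0.43, SE 0.32, limma adjusted p = 0.652).

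Hmox1, the target that BACH1 represses until heme releases it, is known in mouse for upstream enhancers carrying several Maf recognition elements. Its strongest region lay 9.59 kb outside the gene (chr8:75083450-75084298). It held 130 and 208 summit fragments in KO, against 481 and 164 in WT. It was among the highest-ranked member regions by fold, at the 89.8 and 94.6 percentiles in KO, against 94.9 and 92.6 in WT. Centred levels were 1.27 and 1.31 in KO, against 1.83 and 1.69 in WT, without overlap, and the log2 difference of −0.47 with SE 0.18 did not pass (limma, adjusted p = 0.141).

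The region 4.0 kb outside Hmox1 (chr8:75089383-75089780) had no peak in KO replicate 1 and 35 summit fragments in KO replicate 2, against 43 and 25 in WT. The boundary region (chr8:75093254-75094032) showed how the scale matters. By percentile of fold it was lower in KO without overlap, at 78.7 and 76.7 in KO against 82.4 and 82.0 in WT. Ranked among shared regions alone, 72.5 and 63.7 in KO against 69.4 and 77.6 in WT overlapped. By summit fragments, 89 and 102 in KO against 178 and 82 in WT, centred levels of 0.72 and 0.28 in KO, against 0.40 and 0.69 in WT, overlapped (log2 −0.04, limma adjusted p = 0.993).

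GFI1B, the repressor, had clustered regions. Around its start 3 regions were found in all 4 libraries, and 4 regions lie beyond the end of the gene, on the side where the known downstream enhancers of the mouse gene are. The start-site region (chr2:28621706-28622180), whose sequence is shown above, held 86 and 132 summit fragments in KO, against 208 and 78 in WT. Centred levels of 0.67 and 0.65 in KO, against 0.62 and 0.61 in WT, did not overlap but differed by only 0.04, with SE 0.19 (limma, adjusted p = 0.99). The boundary region chr2:28620849-28621343 held 68 and 108 summit fragments in KO, against 188 and 57 in WT, and its centred levels of 0.33 and 0.36 in KO, against 0.48 and 0.16 in WT, overlapped. The strongest region lay 7.04 kb beyond the gene end (chr2:28601627-28602681), with 156 and 244 summit fragments in KO, against 467 and 146 in WT. Its centred levels were 1.53 and 1.54 in KO, against 1.79 and 1.52 in WT, and overlapped (log2 −0.12, limma adjusted p = 0.92).

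Only the region 4.90 kb after the Gfi1b start (chr2:28616511-28618127) and a boundary region were lower in both KO libraries. The first held 117 and 212 summit fragments in KO, against 434 and 147 in WT. Centred levels were 1.12 and 1.34 in KO, against 1.68 and 1.53 in WT (log2 −0.38, SE 0.18, limma adjusted p = 0.296). The boundary region (chr2:28622455-28622943) had centred levels of 0.03 and 0.21 in KO, against 0.32 and 0.21 in WT, where the unrounded values do not overlap (log2 −0.15, limma adjusted p = 0.905). Over its 7 shared regions Gfi1b had a median log2 difference of 0.00.

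Foxo3 gave the 2 regions that passed. At chr10:42264936-42265550, 11.5 kb after the start and inside the gene, KO libraries had 78 and 151 summit fragments, against 349 and 123 in WT. Centred levels were 0.53 and 0.85 in KO, against 1.37 and 1.27 in WT. The level fell to 0.645 times WT in KO, a log2 difference of −0.63 with SE 0.18 (limma, Benjamini-Hochberg adjusted p = 0.0257). At chr10:42244116-42244999, 32.0 kb after the start and also inside the gene, KO libraries had 77 and 133 summit fragments, against 323 and 116 in WT. Centred levels were 0.51 and 0.66 in KO, against 1.26 and 1.19 in WT. This level fell to 0.644 times WT in KO, also −0.63 with SE 0.18 (limma, adjusted p = 0.0269).

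Both calls were lost without WT replicate 1, without WT replicate 2 or without KO replicate 1. For the region at 11.5 kb the adjusted p was 0.184 without KO replicate 1, 0.000179 without KO replicate 2, 0.841 without WT replicate 1 and 0.443 without WT replicate 2. For that at 32.0 kb the values were 0.0788, 0.00126, 0.811 and 0.46 in the same order. The log2 difference stayed between −0.79 and −0.47 for the first and between −0.71 and −0.56 for the second. With the replicate number as a block, the limma adjusted p was 0.179 for both. With the replicate numbers of KO swapped in that block, it was 0.00184 for the first and 0.00207 for the second. Marker genes with a shared boundary region were given above. Both KO libraries were below both WT libraries at 5 of 7 erythroid and 3 of 3 megakaryocyte genes. The same held at 3 of 4 hepatocyte and 0 of 2 macrophage genes, and at 8.19% of all shared boundary regions. The part of these cell types in the Foxo3 calls was not tested.

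Other Foxo3 regions lay the same way without passing. The region at 29.3 kb (chr10:42247202-42247904) held 79 and 118 summit fragments in KO, against 269 and 109 in WT. Its percentiles of fold were 39.7 and 37.8 in KO, against 53.4 and 44.2 in WT. Ranked among shared regions alone, its values of 25.5 and 16.0 in KO overlapped the 25.1 and 32.8 in WT. Its log2 difference was −0.53 with SE 0.19 (limma, adjusted p = 0.104). The region at 16.0 kb (chr10:42260264-42261283) held 77 and 157 in KO, against 310 and 105 in WT, with a difference of −0.41 (limma, adjusted p = 0.256). Before the start, at 14.8 kb (chr10:42291145-42291620), 19 and 42 summit fragments in KO stood against 87 and 29 in WT, with a difference of −0.53 (limma, adjusted p = 0.353). In 6 of the 8 shared Foxo3 regions both KO libraries were below both WT libraries, where 17.3% of all shared regions were. In 8 of 8 the mean difference was below 0, as it was in 41.4% of all shared regions. Of the 8, 7 lie over 1 kb from a boundary. Genome-wide, 24.6% of such shared regions were lower without overlap, and 7710 of 15297 had a difference below 0.

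At the Foxo3 start site the genotypes overlapped. The broad region over it (chr10:42273688-42278460) is 4773 bp long and held 620 and 745 summit fragments in KO, against 1299 and 586 in WT. Centred levels were 3.52 and 3.15 in KO, against 3.27 and 3.52 in WT, which overlap, and the log2 difference was −0.06 with SE 0.26 (limma, adjusted p = 0.99). No interaction between start site and distal regions was tested. Most of the remaining Foxo3 regions were weak. Those found in a single library held 13 to 45 summit fragments, and 7 of these 12 were found only in WT replicate 1, which has the longest list.

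**Figure D4:**
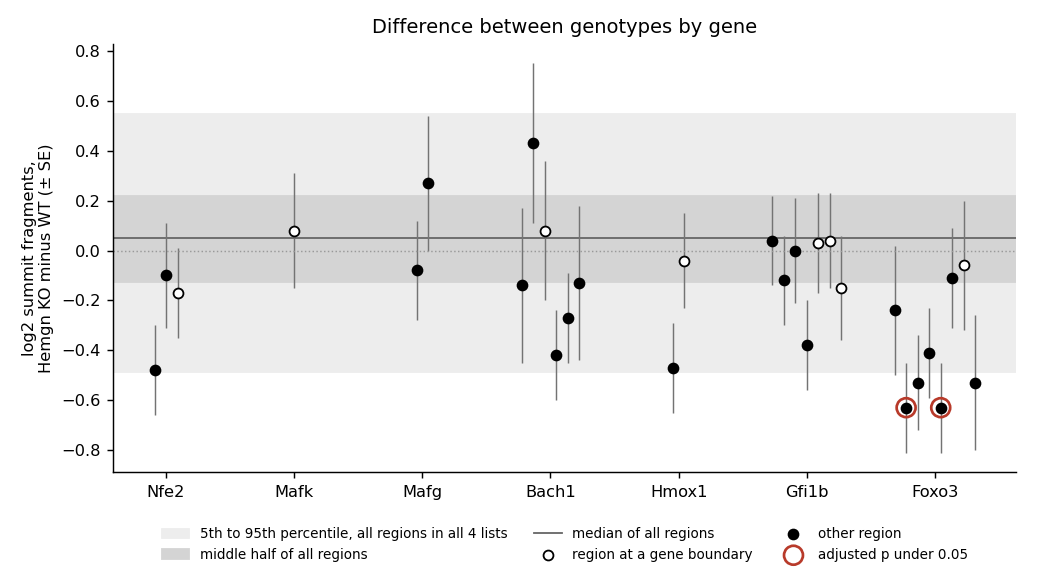
Log2 difference in summit fragments, KO minus WT, with its SE (vertical axis) for the 29 shared regions by gene (horizontal axis), over bands for all 27473 shared regions. Foxo3 holds both regions with an adjusted p under 0.05, at −0.63, and the start sites of Mafk, Bach1 and Foxo3 lie between −0.06 and 0.08.

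**Figure D5:**
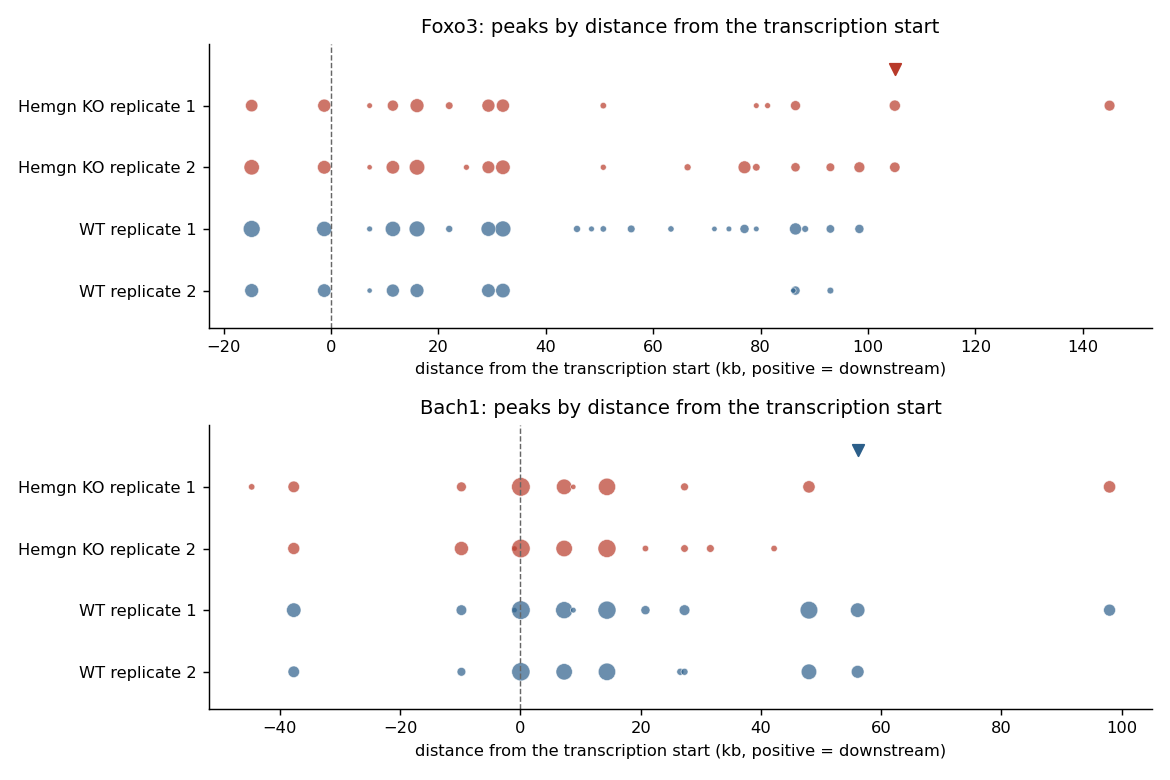
Regions of Foxo3 (top) and Bach1 (bottom) by distance of the summit from the transcription start in kb (horizontal axis), with KO libraries above WT libraries and point area growing with the percentile of fold. The red triangle marks the KO-only Foxo3 region 105 kb after the start, and the blue triangle the WT-only Bach1 region 56.1 kb after it.

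The related genes were taken from 4 lists: CNC and small MAF partners, the GFI1B repressor complex, FOXO paralogs and targets, and genes of heme breakdown and BACH1 or NRF2 targets. These 28 genes had 150 regions, 70 in all 4 libraries. Among those 70, limma called 1 higher and 1 lower in KO, and the median log2 difference was −0.00, against 0.05 over all shared regions. The higher one was at Maff, the third small MAF (chr15:79357074-79357976), with 96 and 110 summit fragments in KO against 102 and 57 in WT (log2 0.73, limma adjusted p = 0.0205). The lower one was at Txnrd1, a thioredoxin reductase (chr10:82899703-82900578), with 39 and 59 in KO against 175 and 66 in WT (log2 −0.86, limma adjusted p = 0.00813).

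By list, the CNC and small MAF partners had 22 shared regions with a median log2 difference of 0.03, and the GFI1B complex had 9 with 0.29. The FOXO list had 12 with −0.09, and the heme and BACH1 or NRF2 targets had 27 with −0.06. Of the 9 regions of the GFI1B complex, 5 were at Rcor1, with a median of 0.451, and the 1 at Hdac1 was at −0.34. WT-only regions were found at Nfe2l3, Bach2, Kdm1a, Cat and Gclc, 1 each, and KO-only regions at Bach2 and Cat, 1 each. That is 5 and 2 of the 150 regions, where 2.2% and 1.41% of all regions were WT-only and KO-only. Of the boundary regions ranked higher in KO without overlap by fold, Rcor1 (a corepressor that binds GFI1B) had the largest difference of mean percentiles, 9.65 points, at the 62.0 and 65.8 percentiles in KO against 61.3 and 47.2 in WT. Cat (catalase) was at 83.3 and 82.6 in KO against 80.1 and 75.0 in WT, and Nfe2l1 at 94.9 and 91.5 in KO against 87.9 and 91.2 in WT. In the other direction only Gfi1, at 5.65 and 9.31 in KO against 15.1 and 10.5 in WT, and Hmox2, at 96.3 and 96.6 in KO against 96.7 and 96.7 in WT, were ranked lower. By summit fragments the log2 difference was 0.55 at Rcor1, 0.11 at Nfe2l1, −0.05 at Cat, 0.29 at Gfi1 and 0.08 at Hmox2. The sign was thus opposite to the rank at Cat, Gfi1 and Hmox2. None of these 5 passed limma. Of all 12176 shared regions within 1 kb of a boundary, 1476 ranked higher and 1458 lower in KO without overlap.

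Other genes were compared with the members by the 4 percentiles of fold of the boundary region with the highest mean, over 12830 genes with such a region in all 4 libraries. The closest to Nfe2 was Cbr1, at a mean absolute difference of 1.38 percentile points, and 3 genes lay within 2 points. Gfi1b had Fam13b at 1.21 points and 3 genes within 2, and Foxo3 had Cd3eap at 0.982 and 16 genes within 2. Hmox1 had Maea at 0.944 with 49 genes, Mafk had Ctc1 at 0.83 with 71, and Bach1 had Pip5k1c at 0.314 with 762. Mafg had Rhoc at 0.342 with 261 genes. Neither of the 2 regions assigned to Mafg lay within 1 kb of its boundary, so its comparison rests on a region not assigned to it. A high, steady rank such as that of Bach1 is shared by many genes.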

How the data were processed

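Per the labels' protocols, about 50,000 cells of each fetal liver sample were taken through Omni-ATAC. The submitters' processing notes name MACS2 2.2.7.1, Picard 2.21.4, Bowtie2 2.3.5 and SAMtools 1.9. What each was used for, with which settings, and the build of the lists are not stated there. The 4 deposited lists hold peaks per library, none pooled. The deposited score is 10 times the −log10 q without its decimals, and the deposited fold is the authors' ratio of summit fragments to local background, each increased by 1. The authors' −log10 p and −log10 q belong to single peaks.

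Peaks on the 19 autosomes and the sex chromosomes were placed by a RefSeq table of GRCm38.p6 with 21774 protein-coding genes. The lists covered 42.3% to 45.5% of RefSeq promoter windows, and 2.14% to 3.84% when the windows were moved by 5, 20 or 50 kb. Exons are not in the table, so regions are placed only inside or outside a gene, and coordinates of regions are those of the lists, counted from 1. Whole summit fragments were solved from fold and −log10 p within 0.01 for 100% of peaks in each list. Fragments at one summit are not known to be independent molecules. The rank calls need both KO libraries on one side of both WT libraries. limma 3.58.1 in R 4.3.3 was fitted to centred log2 summit fragments without the replicate number, and Benjamini-Hochberg adjustment ran over 27473 regions. Its prior degrees of freedom were infinite, so each region's spread was taken from the trend over all regions and not from its own 4 values. Scripts used Python 3.11.15, numpy 2.4.6, pandas 2.3.3 and scipy 1.17.1, and were tested on simulated data. All 7 genes are described, with the regions at their boundaries, their highest-ranked region, each WT-only or KO-only region and the widest gap. The genes and lists were chosen with earlier results of these data known. The limma comparison and the TGATAA search were added after the lists were seen. The alternatives tried are listed at the end.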

Additional observations from a re-analysis of the deposited data

How the results depend on the processing

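The 7 genes kept 20 to 29 regions in all 4 libraries under assignment within 50 kb, the gene body with 1 kb around it, lists of equal length, a −log10 q of at least 5 and an overlap of 50% of the shorter peak. With the gene body and 1 kb around it, WT-only and KO-only regions were 0 each (2.2% and 1.41% of all). With lists cut to 34181 peaks by fold, 0 of 20 regions ranked higher and 6 lower in KO (19.1% and 20.1% of all). With a −log10 q of at least 5, 0 of 51 were KO-only (0.829% of all). In that setting 0 of 24 ranked higher and 2 lower (6.22% and 14.7% of all). Over shared regions 2 ranked higher and 8 lower (19.2% and 20.4% of all). By percentile of summit fragments 1 ranked higher and 1 lower (6.85% and 6.65% of all). Leaving out 1 library at a time moved the difference in peaks (KO minus WT) between −11.5 and 5.5, so its direction rests on WT replicate 1 and KO replicate 1. It moved regions in all remaining libraries between 29 and 33, WT-only between 2 and 9 (3.19% to 15.5% of all regions), KO-only between 1 and 5 (1.73% to 8.83%), higher ranks between 3 and 15 (13.1% to 50.9%), lower ranks between 3 and 25 (15.6% to 61.4%), and the median percentile difference between −9.38 and 1.55 points. By limma it gave 0 to 8 members lower and 0 to 1 higher in KO, with 16 to 1594 lower and 22 to 2010 higher over all regions. Fragments divided by each library's background gave 5 members lower, with 768 lower and 272 higher over all regions. Replicate deviations in KO and WT correlated at −0.17. Depth runs opposite ways by replicate number in KO and WT, so this cannot tell whether the numbers pair the libraries. With the replicate block the difference in peaks stayed −3 (exact sign flips, p = 1, smallest possible 0.5), and limma called 0 members lower, with 79 lower and 101 higher over all regions. With the crossed replicate block it called 5 members lower, with 987 lower and 861 higher over all regions. The causes were not tested.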
